A study of Homo sapiens with 4 samples.

Results

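The genes of the proteasome, the protease that degrades ubiquitin-tagged proteins, were examined in nuclear and cytoplasmic RNA of HEK293T cells. Members were the protein-coding genes whose symbol begins with PSMA to PSMG followed by a number. The rule matched 50 of 51740 rows of the deposited table, of which 19041 were protein-coding. A pair of them, PSMC3IP, a cofactor of meiotic recombination, and PSME3IP1, a partner of PSME3, met the rule by name and encode no proteasome subunit. HEK293T, an established line of human embryonic kidney origin, carries SV40 large T antigen, and every sample was crosslinked with formaldehyde. The samples were 2 nuclear and 2 cytoplasmic libraries, labelled as biological replicates, each stranded and depleted of ribosomal RNA. No drug, transgene or knockdown separated the groups, and both fractions came from the same line. An equal 400 ng of RNA went into each library, so amounts per cell were not measured. The values were scaled by DESeq2 size factors, after which normalized counts summed to 18136040 in nuclear and 28705052 in cytoplasmic RNA, so each log2 value lies 0.66 above the one that equal library totals would give. In bulk RNA, a lower level in all cells cannot be told apart from expression in fewer cells.

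The proteasome is built from a core particle, a barrel of stacked rings of alpha (PSMA) and beta (PSMB) subunits, in which the protease sites face an inner chamber. A regulatory particle caps the barrel. Its ATPases (PSMC) unfold substrates, and its other subunits (PSMD) bind ubiquitin and remove it. Other activators (PSME) can take the place of this cap, PSMF1 can act as an inhibitor, and dedicated chaperones (PSMG) help to assemble the core. Proteasomes are found in both the nucleus and the cytoplasm, while the subunits are made by ribosomes in the cytoplasm.

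The table gives 1 mean normalized count per gene over all 4 libraries, with a log2 fold change of cytoplasmic over nuclear RNA, its standard error (SE) and a DESeq2 adjusted p-value. The mean of each fraction was computed from the overall mean and the fold change. Values of single libraries could be solved only for genes with very few counts, so the spread of a gene between its replicates was not seen. The authors' SE is given in its place, an estimate of the DESeq2 model from 2 libraries a fraction. Genes with an adjusted p-value up to 0.01 were called higher in the fraction with the larger value. Implied library totals ran from 21567507 to 24481541 counts, with size factors of 1.34 and 1.19 for nuclear and 0.853 and 0.755 for cytoplasmic libraries. The nuclear RNAs MALAT1, NEAT1 and KCNQ1OT1 had log2 values of -3.47, -3.09 and -4.25, and the mRNAs RPLP0, RPS2 and GAPDH had 3.77, 3.78 and 3.78. Of markers known from HEK293T cells, VIM, NEFM and NEFL had means of 18261, 16264 and 13195 and PAX2 63.1. Of markers of other cell types, PTPRC (blood cells) and ALB (liver) had means of 1.76 and 0.793, EPCAM (epithelium) 23.5 and COL1A1 (fibroblasts) 213.

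Most proteasome genes were more abundant in the cytoplasmic fraction. Of the 48 members with an adjusted p-value, 38 (79.2%) were called higher in the cytoplasmic fraction, 2 (PSMD14 and PSMG4) in the nuclear one, and 8 were not called. Over all 23333 genes tested, 25.9% were called cytoplasmic and 26.5% nuclear. Over the 15336 protein-coding genes tested, 35.6% were called higher in the cytoplasmic fraction. The median log2 value of the members was 1.89, a 3.70-fold difference, against -0.12 over all genes tested and 0.11 over protein-coding genes. Of the cytoplasmic calls, 32 had a log2 value over 1. The members other than those that matched by name alone made up 0.465% of all normalized counts in cytoplasmic RNA and 0.238% in nuclear RNA. A mean over 50 was reached by 45 of the tested members, and their SE ran from 0.106 to 0.301 on the log2 scale. PSMA8, a germline alpha subunit, had no adjusted p-value, and PSMB11, a thymic beta subunit, had a mean of 0.

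**Figure D1:**
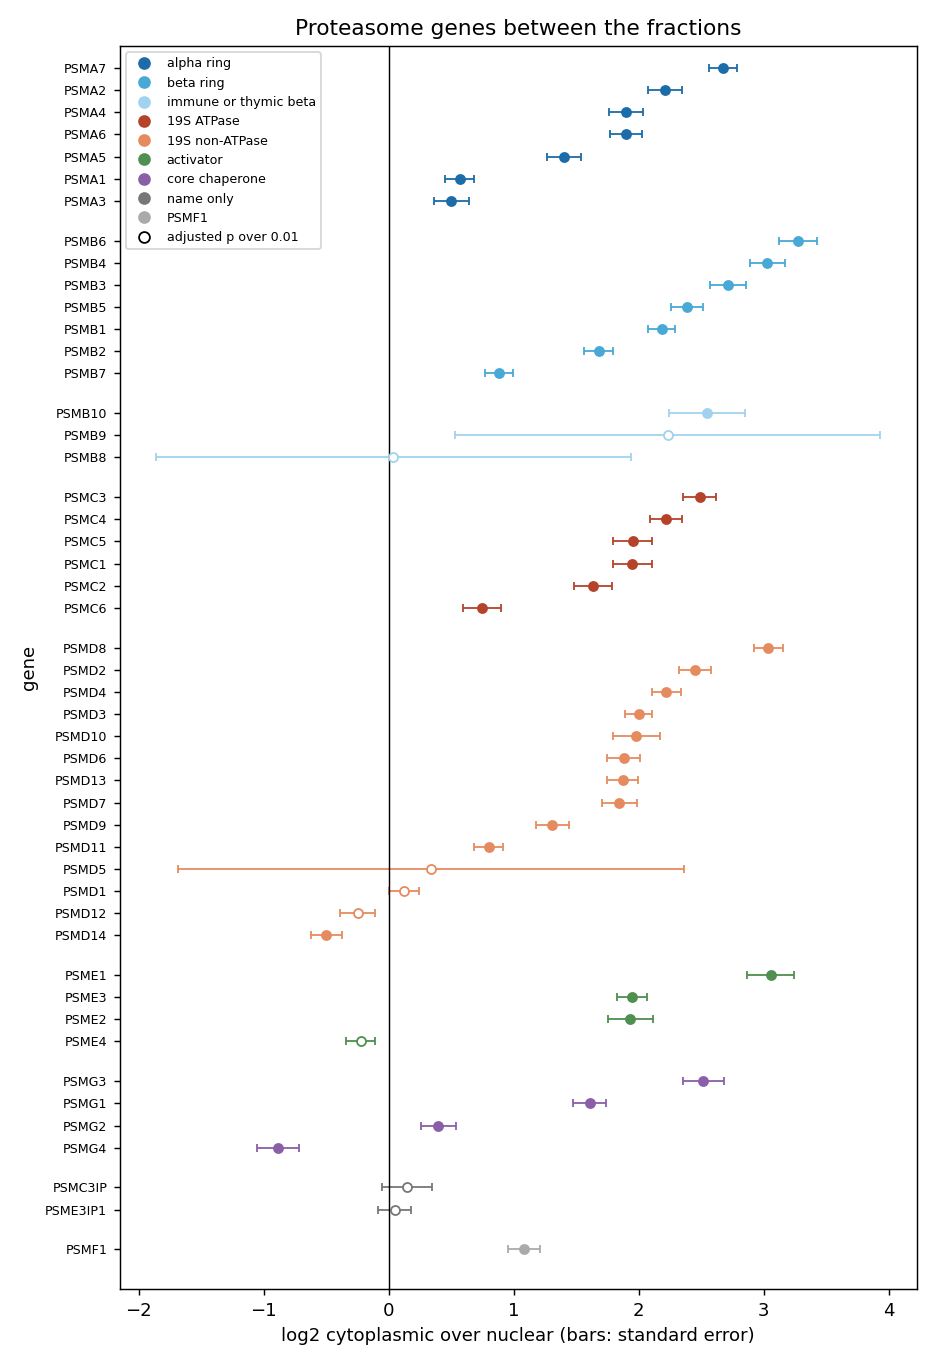
Log2 cytoplasmic over nuclear value (horizontal axis) of the 48 tested proteasome genes, grouped by complex, with bars for the standard error and open symbols for genes that were not called. Both rings of the core lie to the right of 0 throughout, from 0.50 (PSMA3) to 3.28 (PSMB6), while PSMD14 and PSMG4 are the only filled symbols to the left.

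The alpha ring forms the gated outer rings of the barrel. All 7 of its widely expressed genes were called higher in the cytoplasmic fraction, with a median log2 value of 1.90. PSMA7 was the highest, with 945 normalized counts in nuclear and 6023 in cytoplasmic RNA, a log2 value of 2.67 (SE 0.114, adjusted p = 2.53e-120). PSMA2 (2.21), PSMA4 (1.90), PSMA6 (1.90) and PSMA5 (1.40) followed. The lowest were PSMA1, at 0.57 (SE 0.115, adjusted p = 2.27e-06), and PSMA3, at 0.50 (SE 0.139, adjusted p = 0.000724). Both change sign when log2 values are shifted to equal library totals, as given further on. PSMA1 had 2027 nuclear and 3002 cytoplasmic counts. The alpha subunits sit side by side in one ring, yet their RNAs ranged over 2.17 log2 units between the fractions. Between neighbours in this order, the 95% interval of the difference lay above 0 for 3 of 6 pairs. These were PSMA7 over PSMA2 (0.46, interval 0.12 to 0.81), PSMA6 over PSMA5 (0.50, 0.13 to 0.87) and PSMA5 over PSMA1 (0.83, 0.48 to 1.18). These intervals combine the SE of both genes as if they were independent, although all genes were read in the same libraries. Neighbours here and below were set by the same log2 values, so each difference is positive by construction. The intervals were not corrected for this ordering or for the number of pairs, and they are a description only.

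The beta ring carries the protease sites. All 7 of its constitutive genes were called higher in the cytoplasmic fraction, with a median log2 value of 2.39. PSMB6, the subunit with caspase-like activity, had the highest log2 value of the tested members, with 348 nuclear and 3367 cytoplasmic counts, a 9.68-fold difference (log2 3.28, SE 0.150, adjusted p = 1.72e-103). PSMB5, with chymotrypsin-like activity, stood at 2.39 (SE 0.126), from 971 to 5076 counts. PSMB7, with trypsin-like activity, was the lowest of the ring, at 0.88 (SE 0.112, adjusted p = 1.13e-14), from 2099 to 3867 counts. Thus the catalytic genes spanned the whole range of the ring, from the highest to the lowest log2 value of its 7 constitutive genes. The subunits without a protease site, PSMB4 (3.03), PSMB3 (2.71), PSMB1 (2.18) and PSMB2 (1.68), lay between. Of the 6 neighbouring pairs, PSMB1 over PSMB2 (0.51, interval 0.20 to 0.81) and PSMB2 over PSMB7 (0.80, 0.48 to 1.11) differed beyond their errors.

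The immune forms of the catalytic subunits, which interferon induces and which take the place of the constitutive ones, were scarce or near 0. PSMB10 had 38.4 nuclear and 225 cytoplasmic counts and was called higher in the cytoplasmic one (log2 2.55, SE 0.301, adjusted p = 1.32e-16). For PSMB8, the solved counts of single libraries were 3 and 3 in nuclear and 3 and 1 in cytoplasmic libraries, and the log2 value of 0.04 had an SE of 1.90. For PSMB9 they were 1 and 2 in nuclear and 4 and 5 in cytoplasmic libraries. The cytoplasmic counts of PSMB9 lay above both nuclear ones, but its log2 value of 2.23 (SE 1.70) was not called (adjusted p = 0.257). PSMA8 had 1 and 4 counts in nuclear libraries and 0 and 0 in cytoplasmic ones. At such counts a difference was not detectable.

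The ATPases form a ring that pulls the substrate into the core. All 6 genes were called higher in the cytoplasmic fraction, with a median log2 value of 1.95. PSMC3 (2.49, SE 0.133) had 728 nuclear and 4083 cytoplasmic counts. PSMC4 (2.22), PSMC5 (1.95), PSMC1 (1.95) and PSMC2 (1.63) followed, and down to PSMC2 no neighbouring pair differed beyond its errors. The ends of this run did differ, as the 95% interval of PSMC3 (2.23 to 2.75) lay above that of PSMC2 (1.33 to 1.93). PSMC6 was the lowest, at 0.74 (SE 0.152, adjusted p = 2.53e-06), with 613 and 1027 counts. It lay 0.89 below PSMC2 (interval 0.47 to 1.31).

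The other subunits of the regulatory particle were more varied. Of 14 PSMD genes, 10 were called cytoplasmic, 1 nuclear and 3 not at all, with a median log2 value of 1.86. Of the large scaffold proteins of the base, PSMD2 had 1594 and 8710 counts in nuclear and cytoplasmic RNA (log2 2.45, SE 0.127). The other scaffold gene, PSMD1, had 2274 and 2471 counts and a log2 value of 0.12 (SE 0.119, adjusted p = 0.393, 95% interval -0.11 to 0.35), which becomes a nuclear call with equal library totals. The ubiquitin receptor PSMD4 stood at 2.22 (SE 0.113), with 1359 and 6337 counts.

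The lid is the part of the regulatory particle that removes ubiquitin chains. Of its 8 PSMD genes, 6 were called cytoplasmic and 1 nuclear. PSMD8 had the highest log2 value, 3.04 (SE 0.115), with 774 and 6349 counts. PSMD3 (2.00), PSMD6 (1.88), PSMD13 (1.87) and PSMD7 (1.85) differed from each other by less than their errors, and PSMD11 was lower, at 0.80 (SE 0.115). PSMD12 had 1620 nuclear and 1362 cytoplasmic counts, a log2 value of -0.25 that was not called (SE 0.137, adjusted p = 0.104). PSMD14, the deubiquitinase of the lid, had 2371 nuclear and 1678 cytoplasmic counts and was called higher in the nuclear fraction by 1.41-fold (log2 -0.50, SE 0.122, adjusted p = 0.000109). PSMD14 and PSMD12 did not differ beyond their errors (0.25, interval -0.11 to 0.61), whereas PSMD7 lay 1.05 above PSMD11 (0.69 to 1.40), and PSMD11 lay 1.05 above PSMD12 (0.70 to 1.40). The lid genes thus covered 3.54 log2 units, a wider range than the 2.78 units of the 14 constitutive core genes. Over both rings, the ATPases and the lid, 9 of 24 pairs differed beyond their errors, uncorrected and between neighbours ordered by these same values.

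Some PSMD genes encode chaperones that assemble the base and are absent from the finished particle. PSMD10 was called higher in the cytoplasmic fraction (1.98, SE 0.185), with 197 and 776 counts, and so was PSMD9 (1.31, SE 0.131), with 811 and 2008 counts. PSMD5 had almost no counts. The solved values were 4 and 1 in nuclear and 3 and 1 in cytoplasmic libraries, and its log2 value of 0.34 had an SE of 2.02. In GENCODE 44, 27.0% of the exonic bases of PSMD5 lie under another gene, counted on either strand here and below. On the same strand the share is 0%. The authors left out stretches shared by genes, in an earlier annotation, and the part of this step in the low count was not tested. In the same annotation 5 tested members have over 50% of their exonic bases under another gene, PSMA3, PSMC2, PSMC1, PSMC5 and PSMD6. Under genes on the same strand alone, the share is 21.4% for PSMA3, 2.44% for PSMC2 and 0% for PSMC1, PSMC5 and PSMD6. All 5 were called higher in the cytoplasmic fraction, beside 79.2% of the 48 tested members. PSMA3, with 100% of its exonic bases under another gene, lost its call with equal library totals. The part of such overlap in these values was not tested.

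Of the activators, PSME1 and PSME2 form a ring that is induced by interferon. PSME1 had 96.5 nuclear and 803.5 cytoplasmic counts, a log2 value of 3.06 (SE 0.188, adjusted p = 2.38e-58), the second highest of the members. PSME2 had 179 and 684 counts (1.93, SE 0.179). PSME3, whose protein is an activator of nuclear proteasomes, had 896 and 3441 counts (1.94, SE 0.121). PSME4, a large activator that is also mostly nuclear as a protein, had 3098 and 2649 counts. Its log2 value was -0.23 (SE 0.118, adjusted p = 0.088), so it was not called. The inhibitor PSMF1 was called higher in the cytoplasmic fraction (1.08, SE 0.128). Of the name-only matches, PSMC3IP (0.15, SE 0.202) and PSME3IP1 (0.05, SE 0.132) were not called.

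The chaperones of the core, which act as pairs, split between the fractions. PSMG1 (1.61, SE 0.131) and PSMG2 (0.40, SE 0.140, adjusted p = 0.00923) form one pair and were both called higher in the cytoplasmic fraction, although PSMG2 changes sign with equal library totals. PSMG3 and PSMG4 form the other. PSMG3 had 414 nuclear and 2367 cytoplasmic counts (log2 2.52, SE 0.165, adjusted p = 1.05e-51). PSMG4 had 982 nuclear and 530.5 cytoplasmic counts and was called higher in the nuclear fraction by 1.85-fold (log2 -0.89, SE 0.169, adjusted p = 4.19e-07), the lowest log2 value of the tested members. The genes of this pair thus stood at opposite sides of 0. In GENCODE 44, 42.7% of the exonic bases of PSMG4 and 27.0% of those of PSMG3 lie under another gene. For both, 0% lie under a gene on the same strand, and the part of this overlap in either value was not tested.

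**Figure D2:**
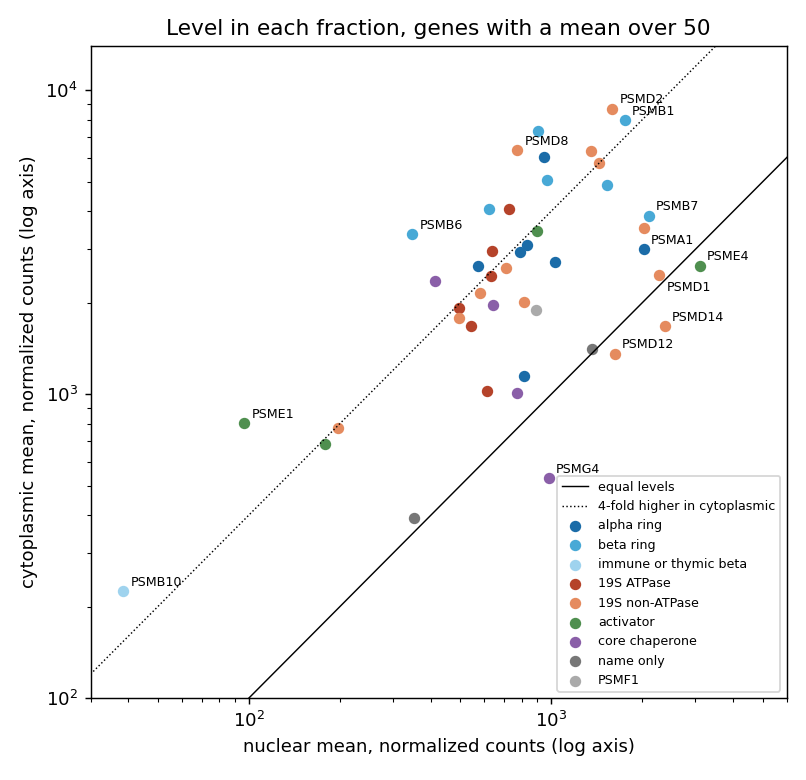
Mean normalized count in the nuclear (horizontal, log axis) and cytoplasmic fraction (vertical, log axis) of the 45 proteasome genes with a mean over 50, with lines for equal levels and for a 4-fold difference. PSMD14, PSMD12, PSME4 and PSMG4 lie below the line of equal levels, and PSMB6, PSMD8 and PSME1 lie furthest above it.

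The core and the regulatory particle were then compared. The 17 tested core genes (PSMA and PSMB) had a median log2 value of 2.18, and the 20 regulatory particle genes (PSMC and PSMD) had 1.88, a difference of 0.31. Among core genes 15 were called cytoplasmic and 0 nuclear by DESeq2, and the lowest value of a tested core gene was 0.04 (PSMB8). Among regulatory particle genes the counts were 16 and 1. The groups overlapped over most of their range, as 11 of 17 core genes lay above the regulatory particle median and 5 of 20 regulatory particle genes lay above the core median. In 62.6% of the 340 pairs of 1 gene from each group the core gene had the higher value. Without the immune, thymic and germline forms the difference fell to 0.17, and it was 0.33 between means weighted by the precision of each gene. Summed over genes, the log2 value was 1.93 for the core and 1.58 for the regulatory particle. Core genes held 49.5% of the counts of both groups in cytoplasmic RNA and 43.4% in nuclear RNA. Without the most abundant gene of each group, PSMB1 and PSMD2, these shares were 49.8% and 42.5%. The shares rest on means over libraries and carry no replicate error, and since the genes of a complex are not replicates, no test was made of this difference.

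To compare levels between genes, counts were divided by the length of the canonical GENCODE 44 transcript in kb. The overall mean per kb had a median of 2104 over the 15 core genes with a mean over 50 and 1003 over the 19 such regulatory particle genes. The length of the canonical transcript may not be that of the isoform these cells express, and the counts include intronic reads. The 14 constitutive core proteins are present in equal numbers in a core particle. Their RNA levels per kb differed 12.6-fold in the cytoplasmic fraction, from 709 (PSMA4) to 8936 (PSMB1), and 11.2-fold in the nuclear fraction, from 190 (PSMA4) to 2133 (PSMB7). The canonical transcript of PSMA4 is 4.38 kb long and that of PSMB1 0.891 kb. Before division by length, their cytoplasmic counts were 3106 and 7962. The 6 ATPase genes differed 6.07-fold in the cytoplasmic and 4.20-fold in the nuclear fraction per kb. PSMC1, the lowest of them in both fractions, has 76.1% of its exonic bases under another gene. PSMC5, the highest in the nuclear fraction, has 61.9%. For both, 0% lie under a gene on the same strand, and the part of this overlap in the ratios was not tested. The lid genes differed 13.4-fold in the cytoplasmic fraction, from PSMD12 to PSMD8, and 4.96-fold in the nuclear fraction, from PSMD7 to PSMD14.

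The position of a gene between the fractions went with the length of the gene. Across the 45 members with a mean over 50, the log2 value had a Spearman correlation of -0.77 with the annotated span, against -0.71 across 12134 protein-coding genes with a mean over 50. It was -0.87 across 15 core genes and -0.78 across 19 regulatory particle genes. Genes are not independent replicates, all points share the same 4 libraries, and introns were counted. Long genes offer more intronic sequence to such counts, and the part of this in the correlation was not tested. With the overall mean count the correlation was 0.27. The 15 members with a span under 10 kb had a median of 2.49, and 14 of them were called higher in the cytoplasmic fraction. The 13 members over 30 kb had a median of 0.57 and 8 such calls. Over all lengths, 25.9% of genes tested and 35.6% of protein-coding genes were called cytoplasmic. Shares called among genes of these lengths were not computed. Groups of protein-coding genes with median spans of 3.62 and 8.35 kb had median log2 values of 2.02 and 1.35. Those with median spans from 41.5 to 305 kb had medians from 0.12 down to -1.97.

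At both ends of the order by length, most of the members given here were short and high or long and low. PSMC3IP, with a span of 5.52 kb and a log2 value of 0.15, was an exception among the short ones. On hg38, PSMB6 (chr17:4796144-4798502) spans 2.36 kb and PSMB4 (chr1:151399560-151401937) 2.38 kb, and both had a log2 value over 3. PSMB10, also 2.36 kb long, stood at 2.55. PSMD14 (chr2:161308425-161411717) spans 103 kb, PSME4 (chr2:53864069-53970993) 107 kb and PSMD1 (chr2:231056845-231173116) 116 kb, and none of these was called higher in the cytoplasmic fraction. PSMB7 (chr9:124353465-124415444), the lowest of the beta ring, spans 62.0 kb. The longest member was PSMA1 (chr11:14504874-14643635), with a span of 139 kb, but its canonical transcript covers only 15.5 kb of it, and its log2 value of 0.57 was called cytoplasmic. PSMG4 (chr6:3231403-3303373), with the lowest log2 value of the tested members, spans 72.0 kb and its canonical transcript 9.10 kb. With the span of the canonical transcript in place of the gene's, the correlation across the 45 members was -0.69, and with the length of the spliced transcript it was -0.38.

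Protein-coding genes tested were placed in 10 groups of similar span, and each member was set against the median of its group. Of the 45 members, 39 lay above it, by a median of 1.00 log2 units. All 15 core genes lay above, by a median of 1.27, from 0.12 (PSMA3) to 1.77. Of the 19 regulatory particle genes 17 lay above, by a median of 0.94, with PSMD12 the furthest below (-0.62). PSMA1, low within the alpha ring, lay 1.47 above the median of its span group, PSMD1 1.03 and PSMB7 1.06. PSMD14 lay 0.01 above and PSMG4 0.38 below. These groups use the annotated span, whereas the canonical transcripts of PSMA1 and PSMG4 cover only 15.5 and 9.10 kb. The groups with median spans of 13.7 and 8.35 kb had median log2 values of 0.94 and 1.35. PSMA1 (0.57) and PSMG4 (-0.89) lay below these. Groups by the span of the canonical transcript were not made. PSMC3IP, which is 5.52 kb long, lay 1.88 below. The median span of these 45 members was 17.2 kb and that of protein-coding genes tested, at any mean count, was 34.9 kb.

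**Figure D3:**
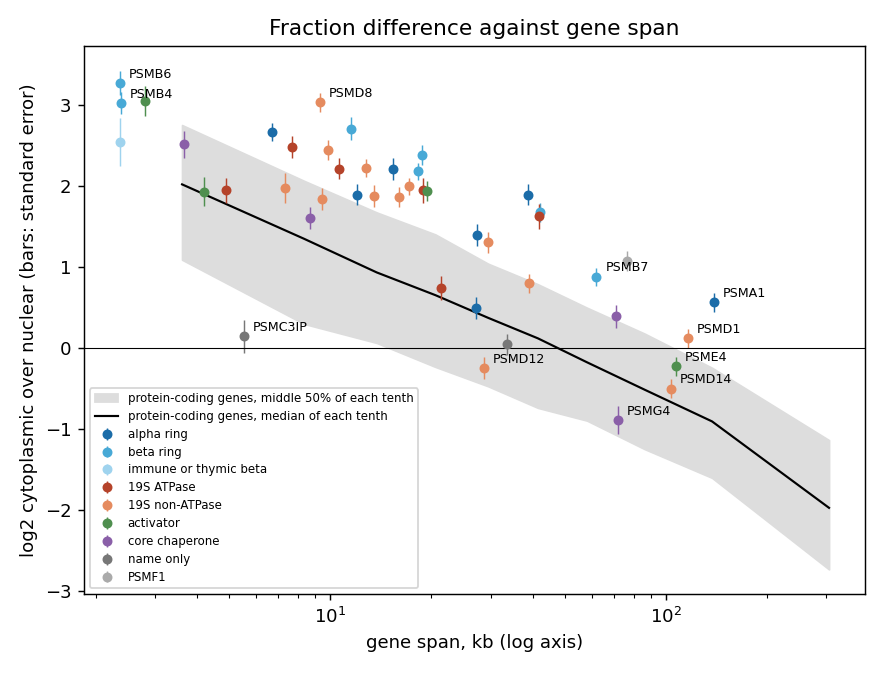
Log2 cytoplasmic over nuclear value (vertical, bars for the standard error) against gene span in kb (horizontal, log axis) of the 45 proteasome genes with a mean over 50. The median and the middle 50% of protein-coding genes tested, at any mean count, are drawn for each of 10 groups by span. The members decline with span, as other protein-coding genes do, and 39 of them lie above the median of their own span group.

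Equal totals of the fractions were imitated by subtracting 0.66 from every deposited log2 value. The authors' SE was kept, and p-values were recomputed by a normal test of the shifted values with Benjamini-Hochberg adjustment. No counts were rescaled, so differences between libraries of a fraction were left as they were. With this shift 32 members were called cytoplasmic and 6 nuclear, where 16.2% and 38.3% of all genes tested were called. The core median became 1.52 and the regulatory particle median 1.21, so both groups stayed on the cytoplasmic side. PSMA1 (-0.10), PSMA3 (-0.16) and PSMG2 (-0.27) changed sign and were no longer called. PSMC3IP (-0.52), PSMB8 (-0.63) and PSMD5 (-0.32) also changed sign and were called with neither scaling. PSMD1 (-0.54), PSME3IP1 (-0.62), PSMD12 (-0.91) and PSME4 (-0.89) were then called higher in the nuclear fraction. PSMB7 (0.22), PSMC6 (0.08) and PSMD11 (0.14) kept their sign and lost their call. PSMD14 and PSMG4 kept their nuclear calls, at -1.16 and -1.55.

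Proteins that work with the proteasome were described from a list of 30 genes, all of them tested. Of these, 19 were called cytoplasmic and 6 nuclear, with a median log2 value of 1.01, where 25.9% and 26.5% of all genes tested were called. With equal library totals the counts were 13 and 11, with a median of 0.35, beside 16.2% and 38.3% of all genes tested. RPS27A and UBB, which encode ubiquitin, were among the highest, at 3.53 (SE 0.125) and 3.27 (SE 0.132). The lowest were NFE2L2 (-1.32, SE 0.130), a regulator of antioxidant genes, the deubiquitinase UCHL5 (-0.83, SE 0.131), NGLY1 (-0.73, SE 0.145), an enzyme that removes sugar chains, and the ubiquitin ligase UBE3C (-0.71, SE 0.123). The deubiquitinase USP14 stood at -0.60 (SE 0.128) and PAAF1, a chaperone of the base, at -0.46 (SE 0.146), both called. With PSMD14, all 3 deubiquitinases of the proteasome were thus called higher in the nuclear fraction. This grouping, and the naming of USP14, PAAF1, ADRM1, POMP, SEM1 and NFE2L1 beside the extremes of the list, was made after their values were seen. The ubiquitin receptor ADRM1 (2.31, SE 0.128) and the core chaperone POMP (1.63, SE 0.143) were called higher in the cytoplasmic fraction, and SEM1, the smallest lid subunit, was not called (-0.26, SE 0.145) but was called nuclear with equal library totals (-0.93). NFE2L1, the transcription factor that raises proteasome genes when proteasomes fail, was called cytoplasmic at 1.06 (SE 0.145) and lost this call with equal library totals (0.39).

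NFE2L1 binds antioxidant response elements, so the promoters of the members were searched for the core of this element, TGAC and, after 3 free positions, GCA, on both strands. The windows ran from 250 bases before to 50 after the start of each gene (RefSeq, GRCh38.p14), and 44 members had at least 1. The letters were found in 9 of these 44 genes (20.5%). They were found in 3.18% of all 35116 promoters and in 3.94% of all genes with a promoter. A match is a description of the letters and no evidence of binding. Sites of 6 of these genes, from core, regulatory particle and activator, are shown 5′ to 3′ on the strand that holds the match, with the matched stretch of searched letters and free positions in capitals. PSMD12 and PSME4 have the same letters in the free positions, and the others differ there.
PSMA4: tgggcacgaTGACTCTGCAccgcctcct
PSMB3: cctccgtttTGACTTTGCAaccaaacta
PSMC5: gggcggcgcTGACACAGCAgatccggtc
PSMD3: ccgcacgaTGACGGAGCAgctgcaaac
PSMD12: gacaaaaccTGACGCTGCAggctggagt
PSME4: ctctgctggTGACGCTGCAgccgccggg
The sites lie at chr15:78540651-78540678 (plus strand) for PSMA4, chr17:38752628-38752655 (plus) for PSMB3 and chr17:63827654-63827681 (minus) for PSMC5. Those of PSMD3, PSMD12 and PSME4 lie at chr17:39980830-39980856 (minus), chr17:67366724-67366751 (minus) and chr2:53971010-53971037 (plus). Members with the letters ranged from PSMD12 (-0.25) to PSMB3 (2.71) in log2 value, with a median of 1.90 over 9 genes, and the 33 tested members with a promoter window but without the letters had a median of 1.85.

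Other complexes of several subunits were set beside the proteasome. All 8 genes of the CCT chaperonin, which folds actin and tubulin, were called higher in the cytoplasmic fraction, with a median log2 value of 2.21. The same held for all 6 genes of prefoldin, which hands proteins to that chaperonin (median 1.69). Of the COP9 signalosome, a relative of the lid, 8 of 9 genes were called (median 1.54), and of translation initiation factor 3, also a relative of the lid, 12 of 13 (median 2.18). None of the 36 genes of these complexes was called higher in the nuclear fraction by DESeq2, and their lowest value was 0.22. Over all genes tested, 25.9% were called cytoplasmic and 26.5% nuclear, and 35.6% of protein-coding genes were called cytoplasmic. The shift of 0.66 for equal library totals would put EIF3J (0.22), COPS7B (0.36), EIF3A (0.42), PFDN1 (0.47) and EIF3H (0.57) below 0. Calls after that shift are not given for these complexes. The proteasome median of 1.89 thus lay within the range of these complexes, and no test of the differences was made.

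**Figure D4:**
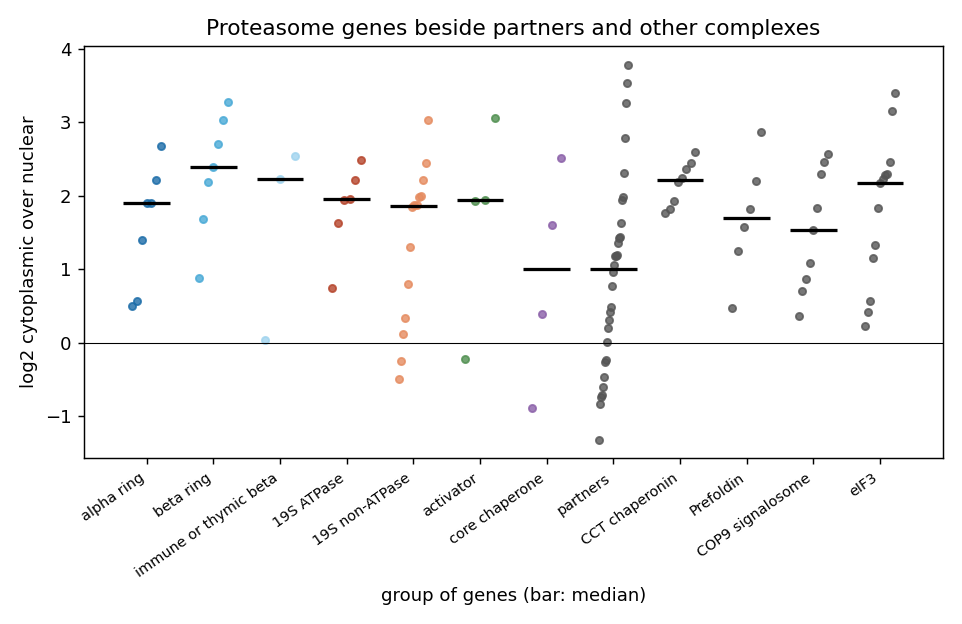
Log2 cytoplasmic over nuclear value (vertical) of each tested gene in the classes of proteasome genes, in 30 proteasome partners and in other complexes (horizontal), with a bar for the median. Medians of the complexes lie between 1.54 and 2.39, while core chaperones and partners lie near 1.00 and spread to both sides of 0.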

How the data were processed

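Nuclear and cytoplasmic RNA of crosslinked HEK293T cells was measured by ribodepleted, stranded RNA-seq in 2 libraries a fraction. The authors aligned reads to hg38 with STAR, counted them per gene over exons and introns with featureCounts (version 2.0.2) in an annotation derived from GENCODE 34, from which stretches shared by genes were removed, and compared the fractions with DESeq2. The authors' mean normalized count is a signal averaged over all 4 libraries, and their fold change and SE are on the log2 scale. The deposited Wald score was not used, and each deposited p-value and its adjusted form belong to that DESeq2 Wald test. A test of single libraries had been planned, but the file holds no value per library, so the authors' fold change, SE and adjusted p-value were used and are named as theirs.

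Size factors were read from the steps between the lowest means, and library totals assume that normalized sums are equal within a fraction. Counts of single libraries were solved for members with a mean under 10, with an absolute tolerance of 1e-07 on the mean normalized count. Fraction means were computed from the overall mean and the fold change, approximate at low counts. For another scaling, a constant was subtracted from the deposited log2 values and their SE was kept. Benjamini-Hochberg values of the normal test that followed were computed over all 23333 tested genes. Spans, transcripts and overlaps came from GENCODE 44 on hg38, a later annotation than the authors'. Members and lists were chosen with earlier results of these data known. Every gene that met the name rule was eligible to be named, with the 4 highest and 4 lowest called partners and the markers, though some of these are not reported here. Scripts were tested on simulated data and ran in Python 3.11.15 with pandas 2.3.3 and scipy 1.17.1. P-values measure only the spread between 2 libraries a fraction.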

Additional observations from a re-analysis of the deposited data

How the results depend on the processing

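No paired analysis was possible because replicate values are averaged in the table. For the same reason the fits with limma, voom, edgeR and DESeq2, another pseudocount, the replicate block and the leaving out of each library were not run, so how far 1 library decides a value is not known. With equal library totals, nuclear calls among the members rose from 2 to 6, cytoplasmic calls over all genes were 3777 in place of 6046, and the medians were 1.52 for the core and 1.21 for the regulatory particle. PSMA1 (-0.10), PSMA3 (-0.16), PSMD1 (-0.54), PSME3IP1 (-0.62), PSMG2 (-0.27), PSMC3IP (-0.52), PSMB8 (-0.63) and PSMD5 (-0.32) then changed sign, which follows from the common shift of 0.66. When centred on the median protein-coding gene, PSMA3 (0.39) and PSMG2 (0.28) lost their call and PSME4 (-0.34) was called nuclear. With a log2 value over 1 also required, 0 members were called nuclear by DESeq2, since the lowest tested value was -0.89. The core median was 2.04 and its difference from the regulatory particle 0.17 both with no minimum of the mean count and without immune, thymic and germline forms. Means weighted by precision were 1.90 for the core and 1.56 for the regulatory particle. PSMA8, PSMB8, PSMB9 and PSMD5 had at most 12 counts each in all, too few to show a difference, and the cause of these low counts was not tested.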

Other observations

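Of pseudogenes named after a member, 36 were listed in the table, from 15 parent genes. Of these, 19 had a mean above 0, 5 were tested and 0 were called in either direction in the authors' DESeq2 table, with 2 at an unadjusted p-value under 0.05. Their means summed to 33.0 normalized counts, which is 0.0366% of the sum over the members. Reads that match both a parent and a copy could not be told apart here.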
